A study of Mus musculus with 16 samples.

Results

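Antigen presentation genes were followed in the skeletal muscle of 16 male C57BL/6J mice, bought at 6 weeks of age, in 4 groups of 4 mice. The control group was kept on a normal diet. The HFD group was fed for 8 weeks on a high-fat diet holding 60% fat, which served as a model of insulin resistance, and the HFD + RSV and HFD + metformin groups were given resveratrol, a plant polyphenol, or metformin, a glucose-lowering drug, for 6 weeks once the 8 weeks had passed. The members were the rows of the mRNA table that carried 1 of 9 gene names, 4 of the class I pathway (H2-K1, H2-D1, B2m, Tap1) and 5 of the class II pathway (H2-Aa, H2-Ab1, H2-Eb1, Cd74, Ciita), out of 23235 gene names. They covered 31 of the 82388 transcripts of that table, and the counts of all transcripts of a gene were added. All 9 genes passed the filter on low counts and were among the 15364 genes tested.

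Class I molecules show peptides from inside the cell to CD8 T cells and are carried by nearly all nucleated cells, muscle fibres at a low level. H2-K1 and H2-D1 code for heavy chains, B2m for the beta 2 microglobulin that pairs with every heavy chain, and Tap1 for a subunit of the pump that brings peptides into the endoplasmic reticulum. Class II molecules show peptides from taken-up material to CD4 T cells and are mainly found on macrophages, dendritic cells and B cells. H2-Aa and H2-Ab1 code for the alpha and beta chains of I-A, H2-Eb1 for the beta chain of I-E, Cd74 for the invariant chain that guards the groove, and Ciita for the coactivator that switches class II genes on. Mice of the C57BL/6 strain lack I-E at the cell surface because of a deletion in the alpha chain gene, while H2-Eb1 is still transcribed. Interferon gamma raises genes of both classes.

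The promoters are shown because many of these genes are known to share the X and Y boxes, short elements bound by regulatory factor X, CREB and NF-Y. RefSeq promoter windows of build GRCm38.p6 were found for 6 of the 9 members, and not for H2-Ab1, Cd74 and Ciita. Capitals mark matches to motifs that were searched on both strands. They were the Y box, CCAAT, which reads ATTGG on the opposite strand, and the X2 box core, TGACG. They were also the kappa B core of class I promoters, GGATTCC, the short interferon regulatory factor site, GAANNGAAA, and the interferon-stimulated response element, which has 1 more A before its free bases, so that a match to one of these forms is not by itself a match to the other. A gamma-activated site, TTCNNNGAA, was searched for too and was not matched in the 250 bases before these starts. In H2-Aa the capitals join a match to TGACG on each strand. Each window runs from 10 bases before the first match to 10 bases after the last or to the start, and the letters follow the strand of the gene.
H2-K1: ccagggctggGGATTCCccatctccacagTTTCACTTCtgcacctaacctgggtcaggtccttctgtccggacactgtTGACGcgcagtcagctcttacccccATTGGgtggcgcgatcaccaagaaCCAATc
H2-D1: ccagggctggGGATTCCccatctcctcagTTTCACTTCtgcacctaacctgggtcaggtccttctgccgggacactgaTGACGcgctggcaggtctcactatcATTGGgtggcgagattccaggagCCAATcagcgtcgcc
B2m: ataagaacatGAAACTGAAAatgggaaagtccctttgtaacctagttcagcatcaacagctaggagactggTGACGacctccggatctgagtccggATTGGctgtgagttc
H2-Aa: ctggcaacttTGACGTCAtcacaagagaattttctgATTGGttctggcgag
H2-Eb1: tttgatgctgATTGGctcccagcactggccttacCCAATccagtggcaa

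The windows lie at chr17:34000334-34000466 on the minus strand for H2-K1, at chr17:35262915-35263055 on the plus strand for H2-D1, at chr2:122147538-122147648 on the plus strand for B2m, at chr17:34287857-34287907 on the minus strand for H2-Aa and at chr17:34305798-34305846 on the plus strand for H2-Eb1. In H2-K1, H2-D1 and B2m, the TGACG core was followed by ATTGG after 20 bases, and in H2-Aa after 21 bases. This order and distance, searched for after the matches had been seen, stood in 50 of 32851 mouse promoters of the same length, or 0.152%. CCAAT alone matched 33.8% of them, TGACG 17.8%, the short interferon regulatory factor site 6.31%, the gamma-activated site 7.02%, the kappa B core 3.17% and the interferon-stimulated response element 2.98%. The window of Tap1 held TGACG from position -86 and CCAAT from position -222, counted back from the start, and not the pair at this distance. H2-Eb1 matched the Y box once on each strand, and not TGACG. The windows were set by the RefSeq starts. In GENCODE M21, the main H2-D1 transcript, H2-D1-202, begins upstream of the H2-D1 window, at chr17:35262730. The H2-D1 window thus lies within the span of that transcript. RefSeq lists a second start of H2-K1 a few bases upstream, from which the CCAAT nearest to the start lies past it and the other matches remain. These are matches of letters and not measured binding.

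Per length, B2m was the most abundant member and Ciita the least. The median FPKM (fragments scaled by transcript length and library size, as the authors computed it, added over transcripts) over the 16 mice was 91.3 for B2m, 54.0 for H2-D1, 41.6 for Cd74, 37.4 for H2-K1, 19.5 for H2-Aa, 19.3 for H2-Eb1, 17.5 for H2-Ab1, 1.87 for Tap1 and 0.439 for Ciita. Neighbours in this order had overlapping ranges over the mice except at the last 2 steps, from H2-Ab1 to Tap1 and from Tap1 to Ciita. Within a mouse, B2m stood above H2-D1 in 15 of 16 mice and H2-D1 above Cd74 in 12, while Cd74 against H2-K1 and H2-Aa against H2-Eb1 were each split 8 to 8. Counts were high for the chains, from 286 for H2-Eb1 to 7533 for H2-D1, and lower for Tap1 (96 to 326 counts) and Ciita (35 to 99 counts), whose values carried more counting error.

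Libraries held 20281801 to 34021101 counts over the mRNA and lncRNA tables. Control mouse 3 and HFD + metformin mouse 3 stood apart from the rest at one end of the first principal component, which took 30.5% of the variance. Class I differences between HFD and control mice, and between HFD + metformin and HFD mice, are given with and without them. So is Pearson's r of the class I genes with the adipocyte and macrophage markers. Not all other class I values are given without both of these mice. Muscle fibre markers summed to between 57427 and 108996 CPM (counts scaled to the library size after TMM), whereas 5 retina markers summed to at most 1.45 CPM, although the labels' extraction text speaks of retinas. The tags of all 4 HFD mice carry a leading number that is found in no other group. Whatever this number stands for and the HFD itself therefore cannot be told apart. HFD + metformin mice 1, 3 and 4, control mouse 4 and HFD + RSV mouse 3 also carry leading numbers found in no other group. Each group is 4 mice of 1 sex and 1 strain, and in these bulk libraries fewer cells of a type and less RNA per cell cannot be told apart.

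The question of the first comparison was how the muscle of HFD mice differed from that of control mice. All 4 class I genes had lower means in the HFD group, by 1.69 to 1.87 times, and the 5 class II genes lay within 0.28 of 0 on the log2 scale. None of the 9 members passed an adjusted P under 0.05 with edgeR, where 2.43% of all genes tested did. DESeq2 called 1 member, Tap1, and 10% of all genes. At an unadjusted edgeR P under 0.05, 4 of 9 members were lower, all of class I, against 12.5% of all genes tested. Without control mouse 3 this count was 1, and it was 2 without control mouse 1 or without HFD mouse 1, 2 or 3.

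**Figure D1:**
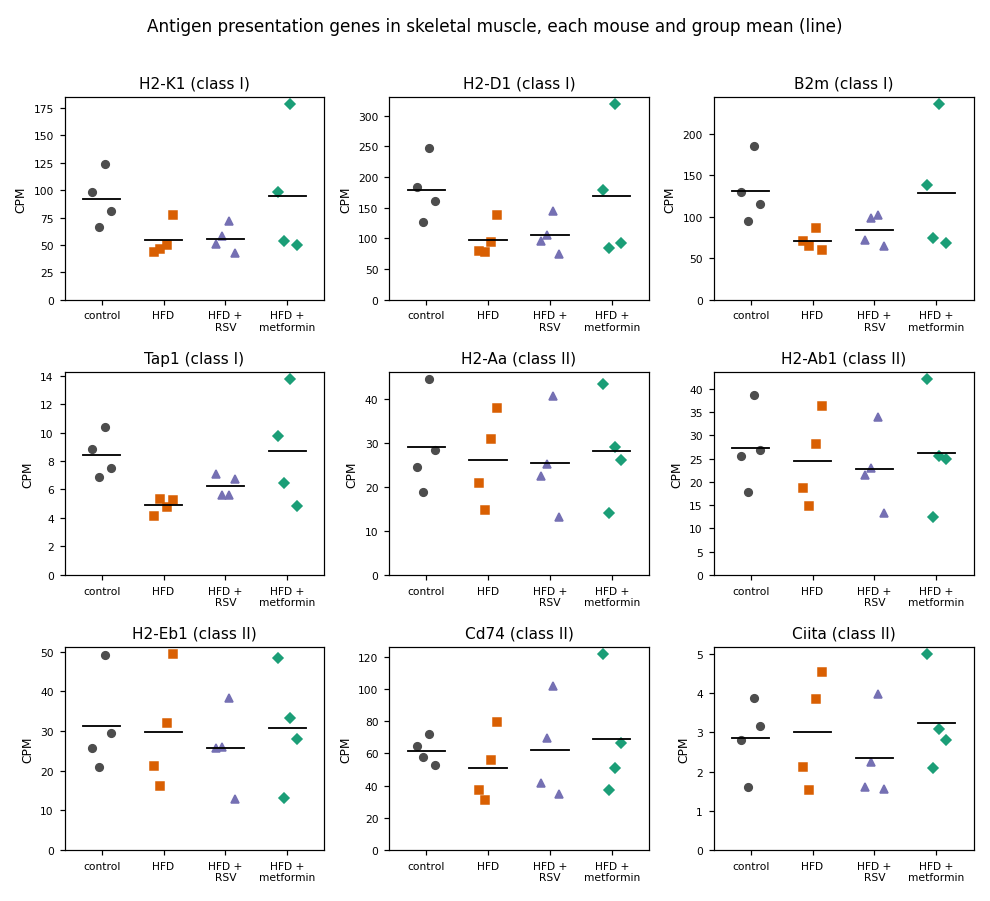
CPM on the y axis of the 9 members in each mouse, with a panel for each gene, a symbol and colour for each group and a line at the group mean of 4 mice. HFD mice lay below all control mice for B2m and Tap1, HFD + metformin mouse 3 was the highest mouse for all 4 class I genes, and the class II panels showed wide overlap of the groups.

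H2-K1 was at 98.1, 66.6, 124 and 80.5 CPM in control mice 1 to 4, at 43.6, 46.3, 50.3 and 77.8 CPM in the HFD mice, at 50.4, 58.3, 72.1 and 42.4 CPM in the HFD + RSV mice, and at 98.5, 53.4, 178 and 49.6 CPM in the HFD + metformin mice. The HFD mice were low except mouse 4, which lay above control mouse 2, so the groups overlapped. H2-D1, the partner heavy chain, was at 183, 127, 246 and 161 CPM in the control mice, at 78.8, 77.9, 94.5 and 138 CPM in the HFD mice, at 95.6, 106, 144 and 74.5 CPM in the HFD + RSV mice, and at 179, 84.5, 318 and 92.6 CPM in the HFD + metformin mice. The same HFD mouse 4 was the high one here and overlapped the control group. In the HFD group against control, the log2FC of H2-K1 was -0.76 (95% CI -1.52 to -0.00041, edgeR adjusted P = 0.207), and that of H2-D1 was -0.88 (95% CI -1.68 to -0.082, edgeR adjusted P = 0.17). An exact two-sided permutation test on log2 CPM gave P = 0.0571 for each of them.

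B2m was at 130.1, 95.4, 185 and 115 CPM in the control mice, at 70.5, 65.0, 86.4 and 59.6 CPM in the HFD mice, at 72.5, 98.8, 102 and 64.2 CPM in the HFD + RSV mice, and at 138, 74.1, 235 and 68.2 CPM in the HFD + metformin mice. Every HFD mouse was below every control mouse, whereas the HFD + metformin mice fell into 2 high and 2 low values. The log2FC of the HFD group against control was -0.90 (95% CI -1.62 to -0.18, edgeR adjusted P = 0.128), and an exact two-sided permutation test on log2 CPM gave P = 0.0286, the smallest P that 4 against 4 mice allow.

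Tap1 was at 8.82, 6.85, 10.4 and 7.54 CPM in the control mice, at 4.15, 5.32, 4.77 and 5.28 CPM in the HFD mice, at 7.07, 5.64, 5.59 and 6.71 CPM in the HFD + RSV mice, and at 9.73, 6.48, 13.8 and 4.85 CPM in the HFD + metformin mice. The HFD mice were the lowest group with the smallest spread, and overlapped neither the control nor the HFD + RSV mice. The log2FC against control was -0.78 (95% CI -1.32 to -0.24, edgeR P = 0.00741, adjusted P = 0.0903, exact permutation P = 0.0286). B2m and Tap1 were thus 2 of 9 members whose HFD mice all lay below the control mice, against 9.44% of all genes tested.

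The call on the class I genes changed with the mice that were fitted, and the cause was not tested. A fit of only 12 mice, without the HFD + metformin group, which the paper leaves out, gave adjusted P values of 0.0114 for Tap1, 0.0245 for B2m, 0.0481 for H2-D1 and 0.0599 for H2-K1 with edgeR, so that 3 of 9 members were downregulated, and this fit called 10.7% of all genes tested. With only the 8 mice compared, Tap1 (adjusted P = 0.0266) and B2m (adjusted P = 0.0387) passed, and 6.74% of all genes did. Leaving HFD + metformin mouse 3 out of the fit of all groups also put B2m (adjusted P = 0.0384) and Tap1 (adjusted P = 0.025) past the threshold, with 10.2% of all genes, and leaving out mouse 4 of that group did so for Tap1 (adjusted P = 0.0485), with 4.13%. Without control mouse 3 and HFD + metformin mouse 3, chosen after seeing the data, the log2FC values were -0.59 for H2-K1, -0.69 for H2-D1, -0.69 for B2m and -0.66 for Tap1, and none passed.

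**Figure D2:**
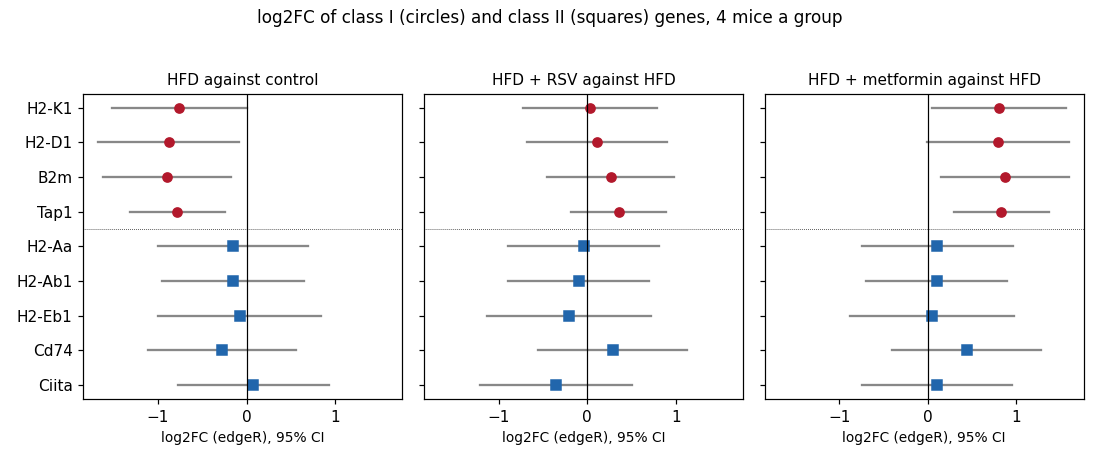
log2FC from edgeR on the x axis for each of the 9 members, in 3 panels for the HFD group against control, HFD + RSV against HFD and HFD + metformin against HFD, with bars for the 95% confidence interval. The class I points sat between -0.90 and -0.76 in the first panel and between 0.79 and 0.87 in the third, and all intervals of the class II genes crossed 0.

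The level of adipocyte transcripts moved with the class I genes, and also with the class II genes, as given further below. The 6 adipocyte markers summed to 506 to 2494 CPM in the control mice, 50.5 to 582 CPM in the HFD mice, 100.4 to 755 CPM in the HFD + RSV mice and 27.5 to 2497 CPM in the HFD + metformin mice. Control mouse 3 and HFD + metformin mouse 3, the highest mice for H2-K1, H2-D1, B2m and Tap1 within their groups, were also the highest for these markers, at 2494 and 2497 CPM. In the HFD group against control, 5 of the 6 markers had a negative log2FC and 1 a positive one, at 1.40. None passed an adjusted P under 0.05. At an unadjusted edgeR P under 0.05, 2 were lower, against 12.5% of all genes tested. With the mean log2 CPM of these markers as a covariate, a fit added after seeing the data, the log2FC of the HFD group against control was -0.29 for H2-K1, -0.36 for H2-D1, -0.42 for B2m and -0.53 for Tap1. The median summed marker level was 937 CPM in the control mice and 179 CPM in the HFD mice. Diet and marker level therefore cannot be told apart in this fit.

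After group means were taken away, the log2 CPM of H2-D1 followed the adipocyte markers over the 16 mice with Pearson's r = 0.923 (permutation P = 0.00022, adjusted P = 0.00066 over 18 relations) and Spearman's rho = 0.938 (permutation P = 5e-05, adjusted P = 0.00018). Without the 2 mice farthest from the median marker level, HFD + metformin mice 2 and 3, r was 0.913. H2-K1 (r = 0.88), B2m (r = 0.803) and Tap1 (r = 0.613) were less tightly related, and Tap1 did not pass (permutation adjusted P = 0.197). Without control mouse 3 and HFD + metformin mouse 3, r was 0.889 for H2-D1, 0.814 for H2-K1, 0.675 for B2m and 0.311 for Tap1. These relations were chosen after seeing the values, and the points share library composition.

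**Figure D3:**
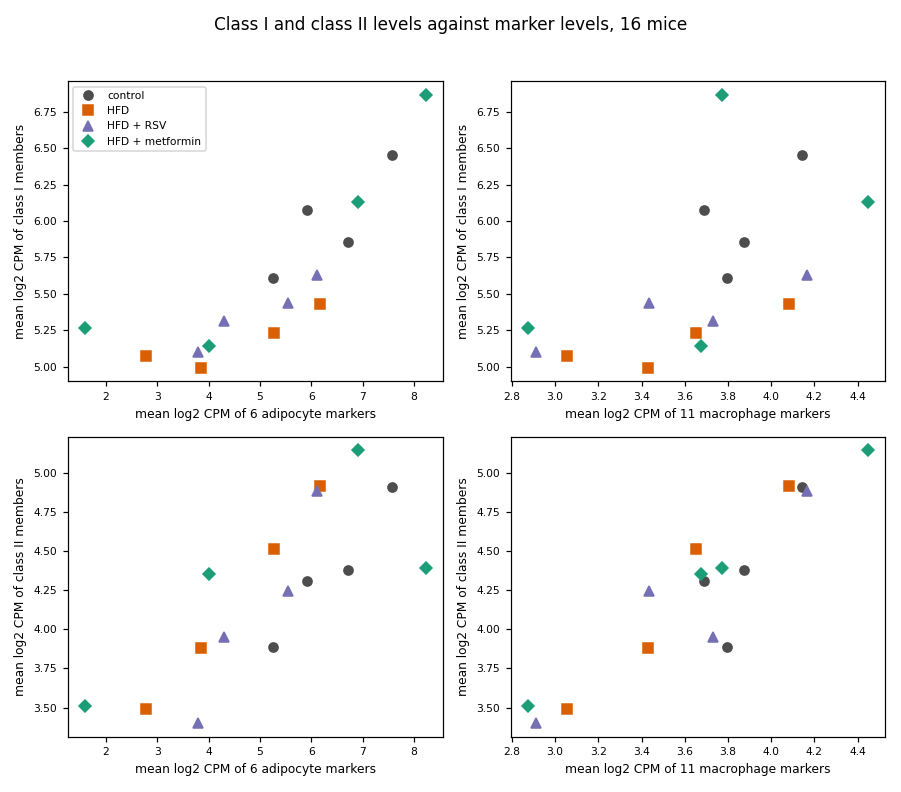
Mean log2 CPM of the 4 class I members (upper panels) and of H2-Aa, H2-Ab1, H2-Eb1, Cd74 and Ciita (lower panels) on the y axis against the mean log2 CPM of 6 adipocyte markers (left) or 11 macrophage markers (right) on the x axis, a point for each of 16 mice. The class I levels of control mouse 3 and HFD + metformin mouse 3 stood at the upper right against the adipocyte markers, and the class II levels were related to both marker lists.

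The class II genes differed more between mice than between groups. H2-Aa was at 24.5, 18.9, 44.7 and 28.4 CPM in the control mice, at 20.9, 14.7, 30.9 and 38.1 CPM in the HFD mice, at 22.5, 25.2, 40.8 and 13.2 CPM in the HFD + RSV mice, and at 43.5, 14.1, 29.1 and 26.3 CPM in the HFD + metformin mice. Each group held a mouse at 38 CPM or more and a mouse under 20 CPM, so all groups overlapped. H2-Ab1, its beta chain, was at 25.5, 17.9, 38.7 and 26.8 CPM in the control mice, at 18.7, 14.9, 28.1 and 36.2 CPM in the HFD mice, at 21.4, 22.9, 33.9 and 13.2 CPM in the HFD + RSV mice, and at 42.1, 12.5, 25.6 and 24.8 CPM in the HFD + metformin mice. The high and low mice were the ones that were high and low for H2-Aa. H2-Eb1 was at 25.7, 20.9, 49.1 and 29.5 CPM in the control mice, at 21.2, 16.2, 32.0 and 49.3 CPM in the HFD mice, at 25.7, 25.9, 38.4 and 12.8 CPM in the HFD + RSV mice, and at 48.4, 13.1, 33.2 and 27.9 CPM in the HFD + metformin mice. In the HFD group, mouse 4 was again the high one.

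Cd74 was at 64.5, 57.9, 71.8 and 52.5 CPM in the control mice, at 37.4, 30.9, 55.9 and 79.5 CPM in the HFD mice, at 41.7, 69.6, 102 and 34.9 CPM in the HFD + RSV mice, and at 121, 37.5, 51.0 and 66.6 CPM in the HFD + metformin mice. Its control mice were the closest to each other, at 61.7 ± 8.34 CPM (SD, n = 4), against 50.9 ± 21.8 CPM in the HFD group. Ciita, the coactivator, was at 2.81, 1.61, 3.87 and 3.17 CPM in the control mice, at 2.12, 1.54, 3.85 and 4.55 CPM in the HFD mice, at 1.61, 2.25, 3.99 and 1.56 CPM in the HFD + RSV mice, and at 5.00, 2.10, 3.08 and 2.80 CPM in the HFD + metformin mice. HFD + metformin mouse 1, HFD + RSV mouse 3, HFD mouse 4 and control mouse 3 were the highest of their groups for Ciita, as they were for the 3 chain genes and Cd74.

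For the HFD group against control, the log2FC was -0.16 for H2-Aa (95% CI -1.0 to 0.69), -0.15 for H2-Ab1 (95% CI -0.95 to 0.64), -0.08 for H2-Eb1 (95% CI -1.0 to 0.84), -0.28 for Cd74 (95% CI -1.12 to 0.56) and 0.07 for Ciita (95% CI -0.78 to 0.93). The lower limits ran from -1.12 to -0.78 and the upper limits from 0.56 to 0.93. With 4 mice a group, the values thus left room for differences of this size. Over the 16 mice, the highest CPM was 3.39 times the lowest for H2-Aa and 3.94 times for Cd74. At an unadjusted edgeR P under 0.05, 0 of 5 class II genes passed in any of the 6 comparisons, whereas 24.2% of all genes did in the HFD group against control, 4.72% in HFD + RSV against HFD, 8.02% in HFD + metformin against HFD, 15.8% and 9.5% in HFD + RSV and HFD + metformin against control, and 4.68% in HFD + RSV against HFD + metformin.

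Once group means were taken away, genes of a class moved together from mouse to mouse. Pearson's r of log2 CPM between members of class II had a median of 0.908 over 10 pairs (0.859 to 0.99), between members of class I 0.834 over 6 pairs (0.757 to 0.991), and between the classes 0.538 over 20 pairs (0.0306 to 0.762). These values describe the 16 mice and are not tests. How far they rest on the mice that stood apart was not tested. H2-K1 and H2-D1 share stretches of sequence, so reads could have been split between them. Of the 50-base words of the main transcript, 8.79% in H2-K1 and 14.3% in H2-D1 also stood in transcripts of other genes of GENCODE M21, most often of H2-D1 and of H2-Q1, against 0.647% in Tap1, 0.269% in Ciita and 0 in B2m, H2-Aa, H2-Ab1, H2-Eb1 and Cd74.

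The genes that tracked each class most closely were of different kinds. With group means taken away over the 16 mice, the 5 genes whose log2 CPM was most like the mean of H2-Aa, H2-Ab1, H2-Eb1 and Cd74 were Pirb (r = 0.961), Mgl2 (r = 0.96), C1qb (r = 0.954), Lyz2 (r = 0.951) and Csf1r (r = 0.945), of which C1qb, Lyz2 and Csf1r are known macrophage genes. For the mean of the class I members they were Sh3glb2 (r = 0.977), Dmtn (r = 0.977), Pitpnm1 (r = 0.976), Rad51d (r = 0.967) and Fam117a (r = 0.964). These are the highest values among all genes tested and carry no test. They are given with all mice only, and how far they rest on the mice that stood apart was not tested.

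Macrophage markers, too, moved with the class II genes. The 11 markers summed to 236 to 339 CPM in the control mice, 155 to 314 CPM in the HFD mice, 147 to 343 CPM in the HFD + RSV mice and 129.7 to 411 CPM in the HFD + metformin mice, with none passing an adjusted P under 0.05 in the HFD group against control. H2-Eb1 followed them with r = 0.948 (permutation P = 3e-05, adjusted P = 0.00042) and rho = 0.903 (permutation P = 7e-05, adjusted P = 0.00021), and r was 0.897 without HFD + metformin mouse 2 and HFD + RSV mouse 4. Over the class II genes r ran from 0.806 to 0.948, and from 0.8 to 0.963 without control mouse 3 and HFD + metformin mouse 3. Among class I genes r ran from 0.25 for Tap1 to 0.67 for H2-D1. Without the same 2 mice, r of the class I genes ran from 0.243 for Tap1 to 0.865 for H2-D1. Class II genes were also related to the adipocyte markers, with r from 0.655 for Cd74 to 0.849 for H2-Eb1. Leaving out control mouse 3 and HFD + metformin mouse 3, this r ran from 0.898 to 0.959, against 0.311 to 0.889 for the class I genes. Without the 2 mice farthest from the median, r of the class II genes was 0.883 to 0.944 against the adipocyte markers and 0.809 to 0.897 against the macrophage markers. The B cell markers Ms4a1, Cd79a, Cd79b and Pax5 had at most 12 counts in any mouse, and the 9 T and NK cell markers at most 15 counts, so these genes were below the filter, although Ighm was at 339 to 2150 counts. In the HFD group against control, the 11 macrophage markers had a median log2FC of -0.24, with 10 negative. The 5 leukocyte markers had a median of -0.30, with 5 negative. The 6 tested dendritic cell markers had a median of 0.13, with 3 positive and 3 negative, and none of these markers passed the adjusted threshold. The part of cell content in these results was not tested.

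The question of the next comparison was what changed when HFD mice were given RSV. In HFD + RSV against HFD, none of the 9 members passed an adjusted P under 0.05 or an unadjusted P under 0.05 with edgeR, where 0 of all genes and 4.72% of all genes did. DESeq2 called 0 members and 8 genes in all. The log2FC was 0.04 for H2-K1, 0.11 for H2-D1, 0.26 for B2m, 0.36 for Tap1, -0.04 for H2-Aa, -0.10 for H2-Ab1, -0.21 for H2-Eb1, 0.29 for Cd74 and -0.35 for Ciita. Tap1 was higher in each HFD + RSV mouse than in each HFD mouse (exact permutation P = 0.0286, edgeR P = 0.179), which held for 1.88% of all genes tested and for 1 of 9 members. The 95% CI of the log2FC of Tap1 ran from -0.18 to 0.89. Against control, the HFD + RSV mice had class I log2FC values between -0.77 for H2-D1 and -0.42 for Tap1, none past an unadjusted edgeR P under 0.05, against 15.8% of all genes, and with 0.00651% of all genes past the adjusted threshold. This count was 4 of 9, all of class I, with only the 8 or the 12 mice fitted or without HFD + metformin mouse 3, and none passed the adjusted threshold in these fits (H2-K1 adjusted P = 0.112 with 12 mice, edgeR). It was 2 without control mouse 2, HFD + metformin mouse 2 or 4, or HFD + RSV mouse 3, and 2 with DESeq2. The share of all genes at this unadjusted threshold was not computed for these other fits. Genes past the adjusted threshold numbered 1 in the main fit and 261 without HFD + metformin mouse 3, so more genes of every kind passed there.

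In HFD + metformin against HFD, all 4 class I genes had higher means, and none of the 9 members passed an adjusted P under 0.05 with edgeR, where 0.013% of all genes did. The log2FC was 0.80 for H2-K1 (95% CI 0.042 to 1.56), 0.79 for H2-D1 (95% CI -0.0054 to 1.59), 0.87 for B2m (95% CI 0.15 to 1.59) and 0.83 for Tap1 (95% CI 0.29 to 1.37). At an unadjusted edgeR P under 0.05, 3 of 9 members were higher, against 5.23% of all genes tested, and DESeq2 called 0 members. Leaving out each mouse gave counts of 1, without HFD + metformin mouse 3, to 4, without mouse 2 or 4 of that group. The groups overlapped for all 9 members, where 3.72% of all genes tested did not, and class I exact permutation P values ran from 0.0857 for Tap1 to 0.229 for H2-D1. HFD + metformin mice 1 and 3 carried the difference, while mice 2 and 4 lay within or close to the HFD group. Without control mouse 3 and HFD + metformin mouse 3, the log2FC was 0.30 for H2-K1, 0.28 for H2-D1, 0.41 for B2m and 0.52 for Tap1. With the adipocyte marker level as a covariate, it was 0.49 for H2-K1, 0.44 for H2-D1, 0.54 for B2m and 0.67 for Tap1. The marker level differed between these groups too, with a median sum of 627 CPM in HFD + metformin and 179 CPM in HFD mice. Treatment and marker level cannot be told apart in that fit. This comparison shares its HFD mice with the one against control, so that the 2 sets of opposite values are not independent.

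Markers of red blood cells and vessels were followed beside these values. The 5 erythroid markers, mostly globins, summed to 362 to 477 CPM in the HFD mice, 357 to 881 CPM in the control mice, 507 to 1343 CPM in the HFD + RSV mice and 499.6 to 1393 CPM in the HFD + metformin mice. Their median log2FC was 1.12 in HFD + metformin against HFD. At an unadjusted edgeR P under 0.05, 5 of 5 were higher, against 5.23% of all genes tested. In HFD + RSV against HFD the median was 0.92, with 4 of 5 higher at this threshold, against 434 of 15364 genes tested. In the HFD group against control it was -0.61, with 0 of 5 past this threshold, against 24.2% of all genes tested. The 6 endothelial markers summed to 297 to 376 CPM in the HFD mice, 337 to 420.1 CPM in the control mice, 300.5 to 388 CPM in the HFD + RSV mice and 308 to 455.5 CPM in the HFD + metformin mice. Their median log2FC was -0.34 in the HFD group against control. At an unadjusted edgeR P under 0.05, 3 of 6 were lower, against 12.5% of all genes tested. In HFD + metformin against HFD the median was 0.26, with 2 of 6 higher at this threshold, against 5.23% of all genes tested. None of these 11 markers passed the adjusted threshold in these comparisons, and their part in the class I values was not tested.

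In HFD + metformin against control, the log2FC of the class I genes lay between -0.09 for H2-D1 and 0.05 for Tap1, and 0 of 9 members and 9.5% of all genes had an unadjusted edgeR P under 0.05, with 0 members and 0 genes past the adjusted threshold (DESeq2: 0 members and 146 genes). Means were close, at 92.2 ± 24.6 CPM in control and 94.97 ± 59.8 CPM in HFD + metformin mice for H2-K1 (SD, n = 4), with the larger spread in the treated group. These values rested on HFD + metformin mouse 3, without which the log2FC was -0.46 for H2-K1, -0.59 for H2-D1, -0.49 for B2m and -0.26 for Tap1. RSV and metformin, given on the same diet for the same time, were set side by side. The log2FC of HFD + RSV against HFD + metformin was -0.77 for H2-K1 (95% CI -1.53 to -0.0075, edgeR adjusted P = 0.962, exact permutation P = 0.286), and those of the other 3 class I genes ran from -0.68 to -0.48. Without HFD + metformin mouse 3 the log2FC was -0.27 for H2-K1, -0.18 for H2-D1, -0.14 for B2m and -0.16 for Tap1. At an unadjusted edgeR P under 0.05, 1 of 9 members was lower, against 3.01% of all genes tested, a count that ran from 0 to 4 as each mouse was left out, with 4 without HFD + metformin mouse 2 or 4. In the fit of all mice, 0 members and 0 of all genes passed the adjusted threshold (DESeq2: 0 members and 10 genes). Over the 4 groups together, 0 members and 0.117% of all genes passed the adjusted threshold with edgeR, and B2m (adjusted P = 0.306) and Tap1 (adjusted P = 0.245) had an unadjusted P under 0.05, 2 of 9 against 15.4% of all genes tested, with 1 to 4 of 9 as each mouse was left out. DESeq2 called 0 members and 766 genes. For the fits without 1 mouse, the share of all genes at the unadjusted threshold was not computed.

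The counts of transcripts showed which forms made up these totals. By the annotation of GENCODE M21, all 31 transcripts were found, of which 18 were protein coding, 11 retained an intron and 2 were processed transcripts. H2-K1 (chr17:33996017-34000333, minus strand) had 8 transcripts, and the protein-coding H2-K1-201 took 81.1% to 88.4% of its counts. H2-D1 (chr17:35262730-35267499, plus strand) had 4, of which H2-D1-202 took 96.9% to 98.3%. B2m (chr2:122147686-122153083, plus strand), H2-Eb1 (chr17:34305877-34316199, plus strand) and Ciita (chr16:10488178-10527564, plus strand) had a single transcript each. H2-Aa-201 took at least 95.9% of the counts of H2-Aa (chr17:34282744-34287827, minus strand) and H2-Ab1-201 at least 97% of those of H2-Ab1 (chr17:34263209-34269418, plus strand).

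Tap1 (chr17:34187553-34197225, plus strand) had no dominant form. Its most abundant transcript, Tap1-204, retained an intron and took 10.2% to 52.1% of the counts, and Tap1-205, another form with a retained intron, had a median share of 21.7%. The protein-coding Tap1-201 was at 0 in 10 of 16 mice, among them all 4 HFD mice, and was at 63, 0, 119 and 0 counts in the control mice, at 84, 0, 133 and 46 counts in the HFD + metformin mice and at 0, 0, 0 and 49 counts in the HFD + RSV mice. An estimated count of 0 can come from how reads were shared between overlapping forms. Tap1-204 alone had a log2FC of -0.04 in the HFD group against control (edgeR adjusted P = 0.979), so the lower total of Tap1 was not seen in its most abundant form.

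Cd74 (chr18:60803848-60812646, plus strand) was mostly the short form Cd74-201, at 63.5% to 84.8% of its counts. The longer Cd74-202, at 1410 bases, had 279, 591, 51 and 42 counts in the control mice, 3, 26, 11 and 36 counts in the HFD mice, 66, 586, 776 and 186 counts in the HFD + RSV mice and 632, 262, 34 and 627 counts in the HFD + metformin mice. Cd74-203, at 1345 bases, had 26, 0, 242 and 149 counts in the control mice, 149, 107, 187 and 242 counts in the HFD mice, 107, 0, 0 and 0 counts in the HFD + RSV mice and 0, 0, 150 and 0 counts in the HFD + metformin mice. Cd74-203 was at 0 in 7 mice, and each of these 7 mice had at least 186 counts of Cd74-202. In the 8 mice with 107 or more counts of Cd74-203, Cd74-202 had at most 66 counts. How reads were split between these forms is uncertain.

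In the lncRNA table, 10 rows overlapped the span of a member. NONMMUT039536.2, within B2m (chr2:122147717-122149358), had 50 to 237 counts and NONMMUT029428.2, which spans H2-D1 (chr17:35241800-35430047), had 3 to 232 counts, while the other 8 had at most 45 counts in any mouse. No row overlapped Tap1, H2-Ab1, H2-Eb1 or Cd74. The strand setting of the counting is not given in the sources used here, so reads of a member and of a lncRNA over it cannot be told apart.

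Among other class I heavy chains and related molecules, 15 of 18 listed names were in the table and 14 were tested. In the HFD group against control, 12 of 14 had a negative log2FC with a median of -0.47, beside a median of -0.02 over all genes tested, 0 passed an adjusted P under 0.05, and 3 were lower at an unadjusted edgeR P under 0.05, against 12.5% of all genes tested. The most abundant were Fcgrt, the neonatal Fc receptor, with a log2FC of -0.36, and H2-T22, a ligand of gamma delta T cells, with -0.33. H2-Q10, named after its values were seen and known as a soluble class I molecule made mainly by liver, was at 29.1, 19.6, 52.2 and 18.8 CPM in the control mice and at 0.303, 0.956, 3.58 and 6.38 CPM in the HFD mice. The groups did not overlap, and the log2FC was -3.42 (edgeR adjusted P = 0.0903). In HFD + metformin mice it was at 16.6, 0.787, 29.8 and 1.22 CPM, high in the mice with high adipocyte markers. In HFD + metformin against HFD, 13 of 14 heavy chain genes had a positive log2FC with a median of 0.62, and 6 were higher at an unadjusted edgeR P under 0.05, against 5.23% of all genes tested.

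For peptide supply and loading, 13 of 13 listed genes were tested. In the HFD group against control the median log2FC was -0.25. With edgeR, 0 passed the adjusted or the unadjusted threshold, against 2.43% and 24.2% of all genes tested. Calr and Canx, the most abundant and both chaperones that hold new chains, had log2FC values of 0.12 and -0.08. In HFD + metformin against HFD the median was 0.24, 0 passed the adjusted threshold and 3 were higher at an unadjusted edgeR P under 0.05, beside the same 5.23%. Those 3, named after their values were seen, were Nlrc5 (log2FC 1.01, edgeR adjusted P = 0.611), the coactivator of class I genes, and Psmb8 (0.81) and Psmb9 (0.83), subunits of the immunoproteasome that cuts peptides for class I. Nlrc5 was at 17.1, 9.33, 27.4 and 6.07 CPM in the HFD + metformin mice and at 5.19, 8.52, 5.13 and 10.8 CPM in the HFD mice. Mice 1 and 3 were again the high ones.

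**Figure D4:**
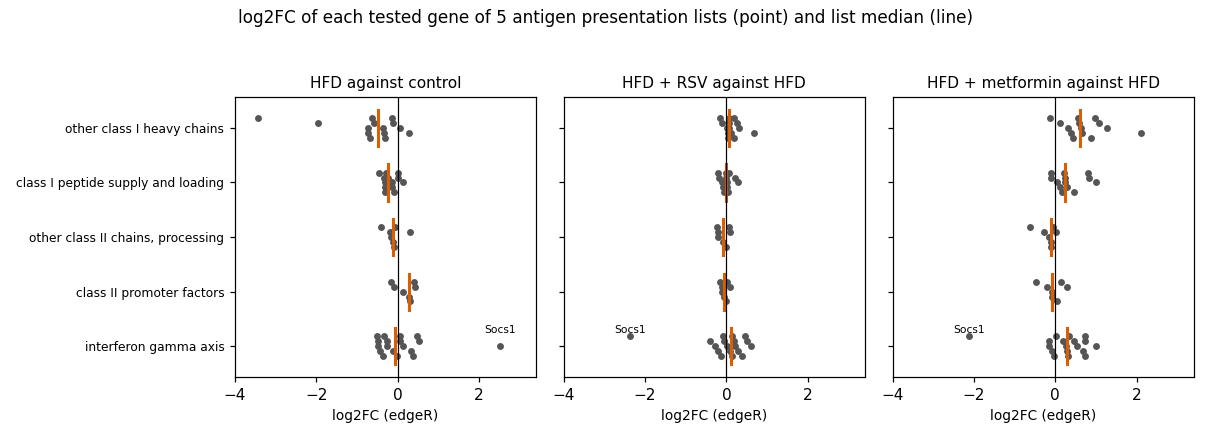
log2FC from edgeR on the x axis of every tested gene (points) of 5 fixed lists, 14 other class I heavy chains, 13 genes of class I peptide supply and loading, 7 other class II chains and processing genes, 7 class II promoter factors and 18 genes of the interferon gamma axis, with a line at the list median, in 3 comparisons. The heavy chain median was -0.47 in the HFD group against control and 0.62 in HFD + metformin against HFD, and the medians of the other class II chains and processing genes were -0.11 and -0.09.

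Of the other class II chains and processing genes, 10 of 11 were in the table and 7 were tested. Their median log2FC was -0.11 in the HFD group against control. With edgeR, 0 passed the adjusted or the unadjusted threshold, against 2.43% and 24.2% of all genes tested. Ctsl and Lgmn, proteases that act on the invariant chain or antigens and the most abundant of the list, had log2FC values of -0.17 and -0.18. H2-DMa and H2-DMb1, which exchange peptides in the groove, were at 32 to 75 and 29 to 96 counts. All 7 factors of the X and Y boxes were tested, with a median log2FC of 0.29 in the HFD group against control, 0 past the adjusted threshold and 2 higher at an unadjusted edgeR P under 0.05, against 11.7% of all genes tested. Creb1 and Nfyb, the most abundant, had log2FC values of 0.29 and 0.43 (adjusted P = 0.074 for Nfyb). Rfxap, named after its value was seen, was the other, at 0.40 (adjusted P = 0.079).

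Of the interferon gamma axis, 18 of 19 genes were tested. In the HFD group against control 1 was upregulated at an adjusted P under 0.05 and 0 were downregulated, with a median log2FC of -0.06, and 4 were higher and 1 lower at an unadjusted edgeR P under 0.05, against 11.7% and 12.5% of all genes tested. Jak1 and Jak2, the receptor kinases and the most abundant of the list, had log2FC values of 0.32 and 0.13. The gene that passed was Socs1, an inhibitor of these kinases that the study followed on its own account, at 0.674, 0.708, 0.43 and 0.364 CPM in the control mice and 1.298, 1.46, 3.36 and 6.57 CPM in the HFD mice (log2FC 2.52, adjusted P = 0.0336). Its counts were low, and the adjusted P ran from 0.0004 to 0.107 over the alternatives, 7 of 26 of which did not pass. In HFD + RSV against HFD the median log2FC of the list was 0.12 with 0 past the adjusted threshold and 2 lower at an unadjusted edgeR P under 0.05, against 1.89% of all genes tested, and in HFD + metformin against HFD it was 0.29 with 0 past the adjusted threshold and 6 higher and 1 lower at an unadjusted edgeR P under 0.05, against 5.23% and 2.79%.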

How the data were processed

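Total RNA of skeletal muscle was depleted of ribosomal RNA and sequenced paired-end on an Illumina NovaSeq. The submitters' notes name fastp, HISAT2 and the genome GRCm38, and the paper names StringTie and TMM; other settings are not given in the sources used here. The authors deposited an estimated count per transcript and mouse, whole in the files, in an mRNA and a lncRNA table, and 4 mRNA rows split over 2 lines were joined. The authors deposited an FPKM value beside each count. Counts were added per gene name, genes were kept by filterByExpr (minimum count 10, minimum total 15), scaled by TMM and tested by edgeR 4.0.16 in R 4.3.3 with the quasi-likelihood test, 1 fit of 16 mice with group as the only term, and the P value was adjusted by Benjamini-Hochberg over all 15364 genes. A gene was called at an adjusted P under 0.05. The share of all genes at an unadjusted P under 0.05 was computed for this fit of 16 mice only. DESeq2 1.42.0 and limma 3.58.1 (log2 of FPKM plus 0.1) served as alternatives. Single genes were also tested by exact permutation of 4 against 4 mice, and correlations by 100000 permutations. Intervals are at 95%. The edgeR fit was also run on simulated counts. They were drawn independently for each gene and mouse, with no libraries that stand apart, so that run does not bear on such libraries. Replicates are mice, 1 library each. Members and lists were chosen with earlier results of these data known. All members were named. From each other list the rule named up to 6 genes that passed the test over the 4 groups, and, since none did, the 2 most abundant. Other named genes were chosen after their values were seen. RefSeq promoters and GENCODE M21 transcripts served for sequences. Counting error was largest for Ciita and Tap1. H2-Ea, H2-Q2, H2-T3, H2-M2, Ifng and Pde6b were not analysed here.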

Additional observations from a re-analysis of the deposited data

How the results depend on the processing

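Over 26 alternatives, 108 of 1377 member values of log2FC changed sign, none of which had passed the test, and the largest of these was -0.42 as reported. The 4 class I genes kept a negative log2FC in the HFD group against control under all 26 alternatives. The count of members called in the HFD group against control, 0 as reported, was 1 with DESeq2, 2 with only the 8 mice compared and 3 with only the 12 mice of the paper, where the test over the groups called 1. Leaving out each mouse in turn gave 0 to 2 members called in the HFD group against control and 0 in the other tests. Of all genes, 374 were called in the HFD group against control, and 1544 with DESeq2, 213 with the total of both tables as library size, 158 without a filter, 998 with 8 mice, 1616 with 12 mice, 32 with the most abundant transcript only, 197 with limma on FPKM and 125 with the adipocyte covariate. In HFD + RSV against HFD, 8 were called with DESeq2 and 1 with the most abundant transcript. In HFD + metformin against HFD, 31 were called with DESeq2, 1 with 8 mice, 1 with the most abundant transcript, 0 with limma and 0 without the 2 libraries that stood apart. In HFD + RSV against control, 376 were called with DESeq2, 0 with the total as library size, 231 with 12 mice, 0 with limma, 53 without the 2 libraries and 9 with the covariate. In HFD + metformin against control, 146 were called with DESeq2, 2 with limma, 38 without the 2 libraries and 16 with the covariate. In HFD + RSV against HFD + metformin, 10 were called with DESeq2 and 1 with the most abundant transcript. Over the groups together, 18 were called, and 766 with DESeq2, 11 with the total as library size, 741 with 12 mice, 8 with the most abundant transcript, 4 with limma, 87 without the 2 libraries and 28 with the covariate. Leaving out each mouse gave 16 to 1588 calls in the HFD group against control, 0 to 1 in HFD + RSV against HFD, 0 to 2 in HFD + metformin against HFD, 0 to 261 in HFD + RSV against control, 0 to 180 in HFD + metformin against control, 0 to 0 in HFD + RSV against HFD + metformin and 1 to 474 over the groups together, and the highest counts in the HFD group against control, over the groups together and against control came without HFD + metformin mouse 3, and the lowest count in the HFD group against control, 16, without control mouse 2; the cause was not tested. With the total of both tables as library size, the median log2FC of all genes in the HFD group against control was -0.17 and in HFD + metformin against HFD 0.13, beside -0.02 and 0.02 with TMM. No paired analysis was run, because the labels do not say that a mouse of one group is paired with a mouse of another. Some tags of different groups share a leading number, and the labels do not say what it stands for.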
